A study of Bos indicus with 9 samples.

Results

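The genes described here are those of the MHC class II region of cattle, the BOLA-D genes, which encode the molecules that show peptides to helper T cells. Probe sets were taken by gene symbol: every probe set whose single symbol starts with BOLA-D, or is CD74 or CIITA. The choice of this gene family was made with earlier results of these data known, so it was not blind to them. The rule found 12 genes measured by 20 probe sets, out of 23948 probe sets tested. No probe set carried CD74 or CIITA as its single symbol (0 found), so the invariant chain and the master activator of class II genes were not analysed here. A further probe set that listed a DQ gene beside another symbol was left out (1 probe set).

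Luteal RNA was measured on 9 Affymetrix bovine arrays, 1 cow per array, in 3 groups of 3 cows assigned at random. All were Nelore crossbred cows (Bos indicus) of 2 to 5 years, kept on pasture with a supplement, and a progesterone device with estradiol benzoate had synchronised the cycle of every cow, controls included. Superovulated cows also received 2000 IU of equine chorionic gonadotropin (eCG, a placental hormone that acts on the ovary) on day 4 of the protocol. For stimulated cows the dose was 400 IU, given on day 8. Control cows received no eCG. The corpus luteum, the progesterone-secreting gland that forms from the ovulated follicle, was collected at slaughter on day 6 after ovulation. Dose and day of eCG changed together, so the comparison of superovulated with stimulated cows cannot tell them apart, and both treated groups are set against the same 3 control cows.

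MHC class II molecules are pairs of an alpha and a beta chain on the surface of antigen-presenting cells such as macrophages, dendritic cells and B cells. Peptides from engulfed proteins, cut by proteases of the endosome, are loaded onto them with the help of DM, a pair encoded by DMA and DMB, while DO, whose alpha chain is DOA, modulates DM. Cattle present peptides through DR (DRA with DRB3) and DQ (DQA with DQB) and carry DY genes known from ruminants. The DQ genes are polymorphic, and cattle haplotypes carry a single or a duplicated set of them; no genotype was measured here. Interferon gamma is a known inducer of class II genes, and the corpus luteum is known to hold resident leukocytes.

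The values are log2 signals, on which a difference of 1 is a doubling. Each probe set was fitted with limma over all 9 arrays, and adjusted p-values are those of Benjamini-Hochberg over the 23948 probe sets, with 0.05 as the threshold. The probe sets are those of the array's design: a suffix s marks probes shared by related transcripts, a marks probes shared by transcripts of 1 gene, and x marks a set with some probes that may bind other sequences. The 20 probe sets rest on 16 design sequences, and 7 of them share their design sequence with another member (3 sequences), so they are not independent readings. Brightness depends on the probes as well as on the RNA, so levels are compared between cows and not between genes. No genome position is given, because none of the 12 symbols stands in the RefSeq gene table used for names (0 matched).

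None of the 20 probe sets passed the threshold in any comparison by limma. The lowest adjusted p was 0.451, for BOLA-DMB in superovulated minus stimulated corpora lutea, at -0.86 on the log2 scale. The smallest unadjusted p by limma was also that of BOLA-DMB, 0.00366 for stimulated minus control, at 1.18 with an adjusted p of 0.537. Over the whole array 0.00418% of probe sets passed for stimulated against control (1 probe set), 0% passed for superovulated against control, and 0.00418% passed for superovulated against stimulated. At an unadjusted p under 0.05, 3 of 20 members were past the line for stimulated against control, where 6.4% of all probe sets were; these were DMB, the bright DQB1 probe set and a DQA1 probe set. For superovulated against control 0 of 20 were, against 6.2% of all. For superovulated against stimulated 4 of 20 were, against 9.66% of all; these were DMB and the bright DQB1 probe set, lower, and 2 DQA2 probe sets, higher. In the F test for any difference among the 3 groups, 2 of 20 members had an unadjusted p under 0.05, against 7.69% of all, and 0.00418% of all probe sets passed after adjustment. The differences below are therefore descriptions of these 9 cows.

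The array values divided the members. A group of 8 probe sets had means below the lower quartile of the array (2.72), and the other 12 lay above it. The log2 fold change was positive in 15 of all 20 for superovulated minus control, against 50.8% of all probe sets, in 14 of 20 for stimulated minus control, against 48.8%, and in 7 of 20 for superovulated minus stimulated, against 51.3%. The median over all 20 was 0.13, 0.13 and -0.06 in these comparisons, and over the 12 brighter ones 0.44, 0.80 and -0.66. Taking 1 probe set for each of the 12 genes, the median log2 fold change was 0.10 for superovulated minus control, 0.42 for stimulated minus control and -0.17 for superovulated minus stimulated. The median over all genes was 0.01, -0.00 and 0.01 in the same 3 comparisons.

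The DR and DQ chains and the DM pair that gave a clear signal in every cow are described first. DRA, the shared alpha chain of DR, had log2 signals of 11.46, 11.50 and 11.38 in superovulated cows, 11.69, 11.80 and 11.71 in stimulated cows, and 10.86, 11.86 and 10.36 in control cows. All superovulated values lay below all stimulated values, while the control cows spanned both, with 1 above and 2 below every treated cow. DRA averaged 11.45 ± 0.06 in superovulated, 11.73 ± 0.06 in stimulated and 11.03 ± 0.76 in control cows (SD, n = 3 each). The log2 fold change was 0.42 for superovulated minus control (SE 0.32, adjusted p = 0.87), 0.71 for stimulated minus control (SE 0.32, adjusted p = 0.783) and -0.29 for superovulated minus stimulated (SE 0.32, adjusted p = 0.806). Both differences from control depended on single control cows: without control replicate 3 they were 0.09 and 0.38, and without control replicate 2 they were 0.84 and 1.12, none past the threshold.

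DRB3 is the beta chain that pairs with DRA and the main polymorphic DR gene of cattle. Its probe set with suffix s had log2 signals of 11.16, 11.03 and 10.88 in superovulated cows, 11.32, 11.52 and 11.0 in stimulated cows, and 10.10, 11.53 and 10.10 in control cows. As for DRA, control replicate 2 stood at the top and the other 2 controls below every treated cow. The groups averaged 11.02 ± 0.14, 11.28 ± 0.26 and 10.58 ± 0.83 in superovulated, stimulated and control cows (SD, n = 3 each). The second DRB3 probe set had 8.98, 8.63 and 9.54 in superovulated cows, 9.72, 9.84 and 9.20 in stimulated cows, and 9.20, 9.37 and 7.83 in control cows. Here the 3 groups overlapped and only control replicate 3 stood apart. For stimulated minus control the DRB3 probe sets gave 0.70 (SE 0.37, adjusted p = 0.827) and 0.78 (SE 0.42, adjusted p = 0.833), and for superovulated minus control 0.45 (adjusted p = 0.876) and 0.25 (adjusted p = 0.95). With single arrays left out, the s probe set ran from 0.21 (without control replicate 1 or 3) to 0.92 (without control replicate 2) for superovulated minus control, and from 0.46 to 1.18 without the same cows for stimulated minus control. The second ran from -0.24, a turn of sign, to 0.53 and from 0.30 to 1.07, lowest without control replicate 3 and highest without control replicate 2 in each.

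DQB1, a beta chain of DQ, was measured by 5 probe sets that did not move together. The bright one, with suffix s, had log2 signals of 11.54, 11.03 and 11.43 in superovulated cows, 12.46, 12.55 and 12.03 in stimulated cows, and 10.44, 12.20 and 11.14 in control cows. Every superovulated cow lay below every stimulated cow, and the controls overlapped both groups. The fold change was -1.01 for superovulated minus stimulated (SE 0.40, adjusted p = 0.496), and 1.09 for stimulated minus control (SE 0.40, adjusted p = 0.736). Superovulated minus control was 0.07 with a 95% interval from -0.87 to 1.01 (adjusted p = 0.987). Without control replicate 1 the stimulated difference was 0.68 and the superovulated one -0.34. As the mean of all 5 DQB1 probe sets, the gene had 0.13 for superovulated minus control, 0.12 for stimulated minus control and 0.01 for superovulated minus stimulated.

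DMB, the beta chain of the DM peptide loader, had log2 signals of 7.22, 7.07 and 7.05 in superovulated cows, 8.00, 7.99 and 7.92 in stimulated cows, and 6.88, 7.42 and 6.08 in control cows. The 3 stimulated cows lay above all 6 others. Means were 7.11 ± 0.10 in superovulated, 7.97 ± 0.04 in stimulated and 6.79 ± 0.68 in control cows (SD, n = 3 each). The fold change was 1.18 for stimulated minus control (95% interval 0.51 to 1.85, adjusted p = 0.537) and -0.86 for superovulated minus stimulated (interval -1.53 to -0.19, adjusted p = 0.451). For superovulated minus control it was 0.32 (interval -0.35 to 0.99, adjusted p = 0.892), and these neighbours in the order of levels did not differ beyond their spread. Without control replicate 3 it was -0.04, and without control replicate 2 it was 0.64.

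DMA, the alpha chain of DM, had 6.48, 5.87 and 6.55 in superovulated cows, 7.66, 6.80 and 7.48 in stimulated cows, and 6.58, 7.02 and 5.31 in control cows. Stimulated cows again lay above every superovulated cow, and control replicate 2 reached into their range. DMA averaged 6.30 ± 0.37, 7.31 ± 0.46 and 6.30 ± 0.89 in superovulated, stimulated and control cows (SD, n = 3 each). Stimulated minus control was 1.01 (SE 0.45, adjusted p = 0.78) and superovulated minus stimulated -1.01 (SE 0.45, adjusted p = 0.523). Without control replicate 3 stimulated minus control was 0.51. Superovulated minus control was -0.00 (adjusted p = 1) and ran from -0.50 without control replicate 3 to 0.36 without control replicate 2.

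**Figure D1:**
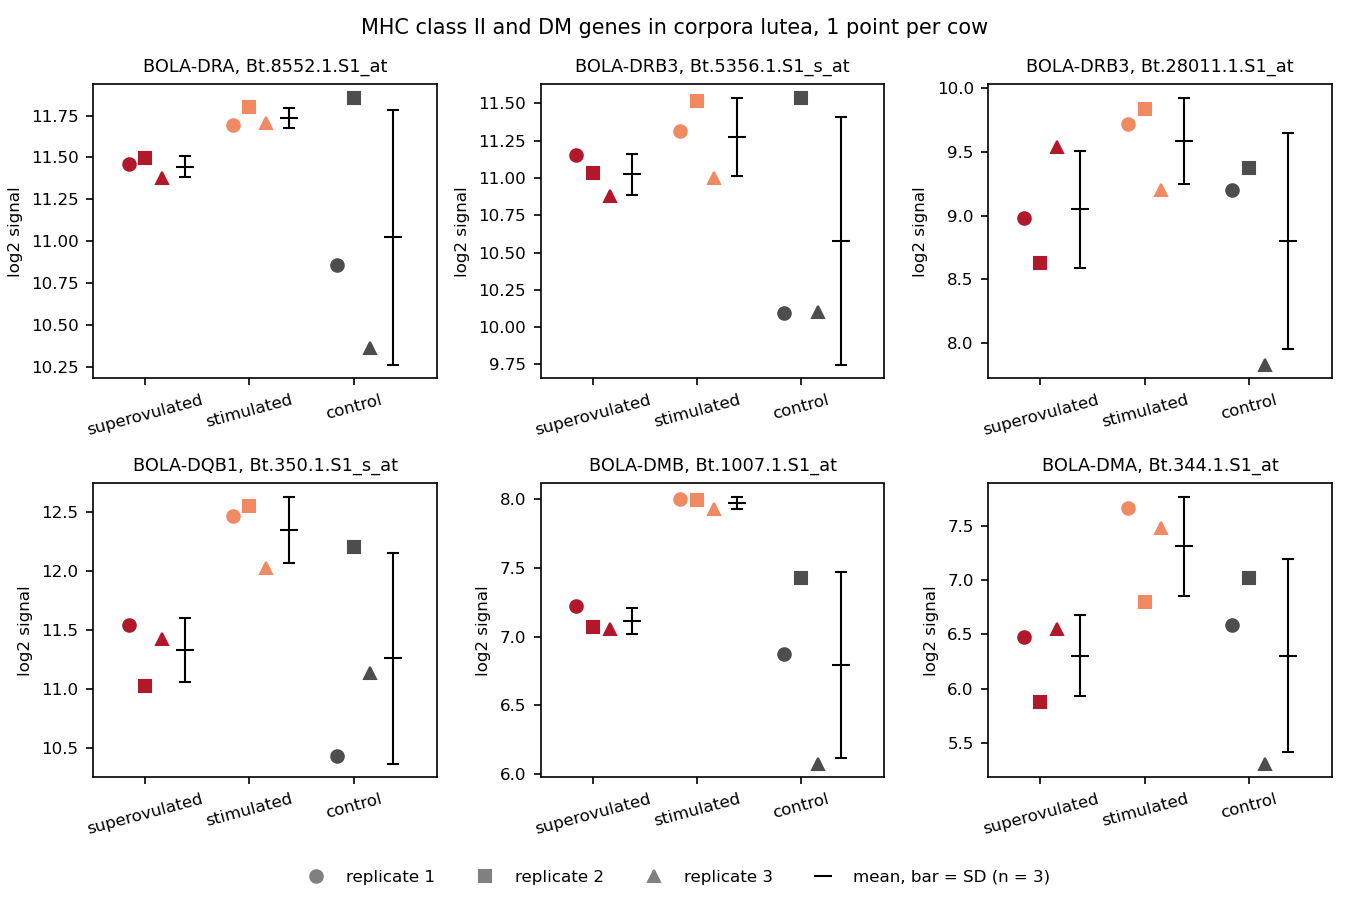
Log2 signal (vertical axis, its own range in each panel) of 6 BOLA-D probe sets in each cow, by group; a point is 1 cow, its shape the replicate number, and the bar the mean and SD of 3 cows. For DMB the stimulated cows, at 7.92 to 8.00, lie above all others, and for DRA the controls spread from 10.36 to 11.86.

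Among these 6 probe sets the control cows differed among themselves more than the treated cows did. The lowest of the 9 values belonged to control replicate 3 in 4 of the 6 and to control replicate 1 in the other 2. The highest value belonged to control replicate 2 in 2 of the 6, to stimulated replicate 1 in 2 and to stimulated replicate 2 in 2. No superovulated cow held the highest or the lowest value of any of the 6 (0 of 6).

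Groups that did not overlap were counted over all 20 members. For superovulated against stimulated 5 of 20 were lower without overlap, where 6.89% of all probe sets were, and 0 of 20 were higher, against 6.65% of all. These 5 were DRA, DMA, DMB and DQB1 by its bright probe set and by probe set Bt.7220.1.S1_at. For stimulated against control 2 of 20 were higher without overlap (DMB and the x probe set of DQA1), where 5.79% of all were, and 0 of 20 were lower, against 5.71%. For superovulated against control 3 of 20 were higher without overlap, where 5.18% of all were, and 0 of 20 were lower, against 5.71%. Those 3 were both DQA2 probe sets with suffix a and DQB1 by probe set Bt.4594.1.S1_at.

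**Figure D2:**
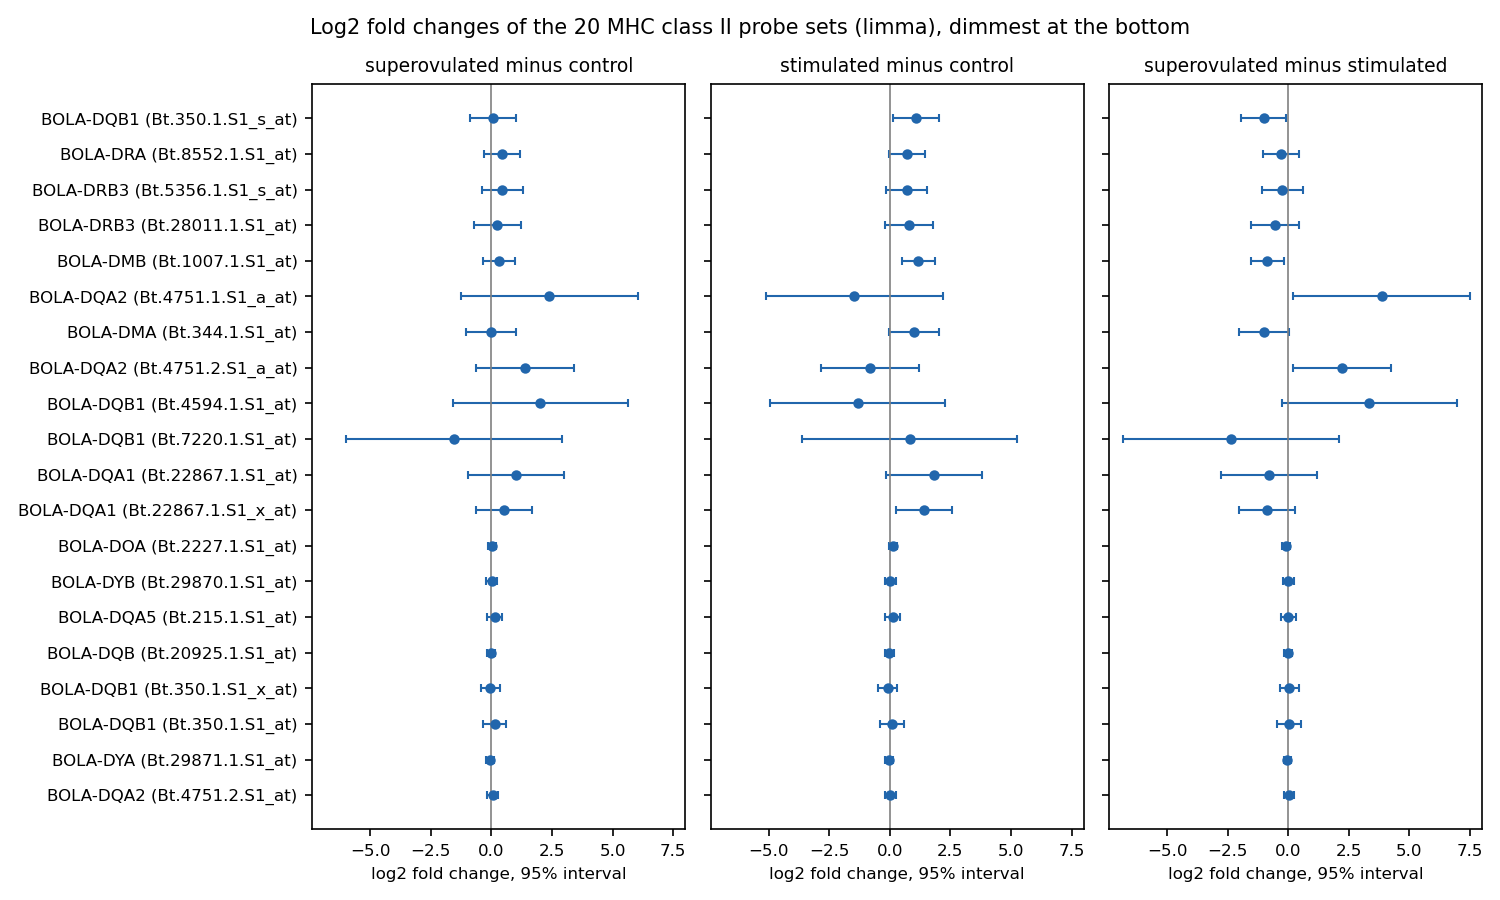
Log2 fold change (horizontal axis, the same range in each panel) with its 95% interval from limma for the 20 probe sets, dimmest at the bottom, for superovulated minus control, stimulated minus control and superovulated minus stimulated. The 8 dim probe sets stay between -0.09 and 0.13, and the widest intervals belong to DQA2 and DQB1.

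On several DQ probe sets a few cows had a signal many times that of other cows of their own group. DQA2, an alpha chain of DQ, gave log2 signals of 9.23, 9.14 and 9.50 in superovulated cows, 3.22, 3.71 and 9.37 in stimulated cows, and 8.33, 5.10 and 7.27 in control cows by probe set Bt.4751.1.S1_a_at. Stimulated replicates 1 and 2 lay between the lower quartile (2.72) and the median (4.23) of all probe set means. Stimulated replicate 3 stood level with the superovulated cows. The other bright DQA2 probe set, Bt.4751.2.S1_a_at, had 7.42, 7.75 and 7.88 in superovulated cows, 4.40, 4.26 and 7.78 in stimulated cows, and 6.97, 6.27 and 5.67 in control cows. It divided the stimulated cows in the same way.

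DQB1 by probe set Bt.4594.1.S1_at had 7.63, 8.52 and 7.85 in superovulated cows, 2.41, 2.72 and 8.84 in stimulated cows, and 7.03, 5.38 and 5.52 in control cows. Here too stimulated replicates 1 and 2 were the lowest cows and stimulated replicate 3 the highest. DQB1 by probe set Bt.7220.1.S1_at had 3.10, 3.32 and 3.78 in superovulated cows, 4.12, 4.43 and 8.76 in stimulated cows, and 3.10, 9.37 and 2.39 in control cows. Only 2 of 9 cows, stimulated replicate 3 and control replicate 2, had a high signal on this probe set, although the bright DQB1 probe set was high in all 9. The DQ genes are polymorphic and no genotype was measured. The part of DQ alleles or gene copies in the DQ signals of single cows and in their group differences was not tested.

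DQA1, the other DQ alpha chain with signal, ran the other way in the stimulated cows. Its probe set Bt.22867.1.S1_at had 3.54, 5.25 and 5.11 in superovulated cows, 5.82, 6.70 and 3.72 in stimulated cows, and 4.75, 3.12 and 2.93 in control cows. Its x probe set, which shares that design sequence, had 3.33, 4.12 and 4.65 in superovulated cows, 5.20, 5.68 and 3.86 in stimulated cows, and 3.66, 3.76 and 3.10 in control cows. Stimulated replicates 1 and 2, low for DQA2, were the highest cows for DQA1 on both. Stimulated minus control was 1.81 (SE 0.85, adjusted p = 0.785) and 1.41 (SE 0.50, adjusted p = 0.716) by limma. The first was 1.17 without stimulated replicate 2.

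**Figure D3:**
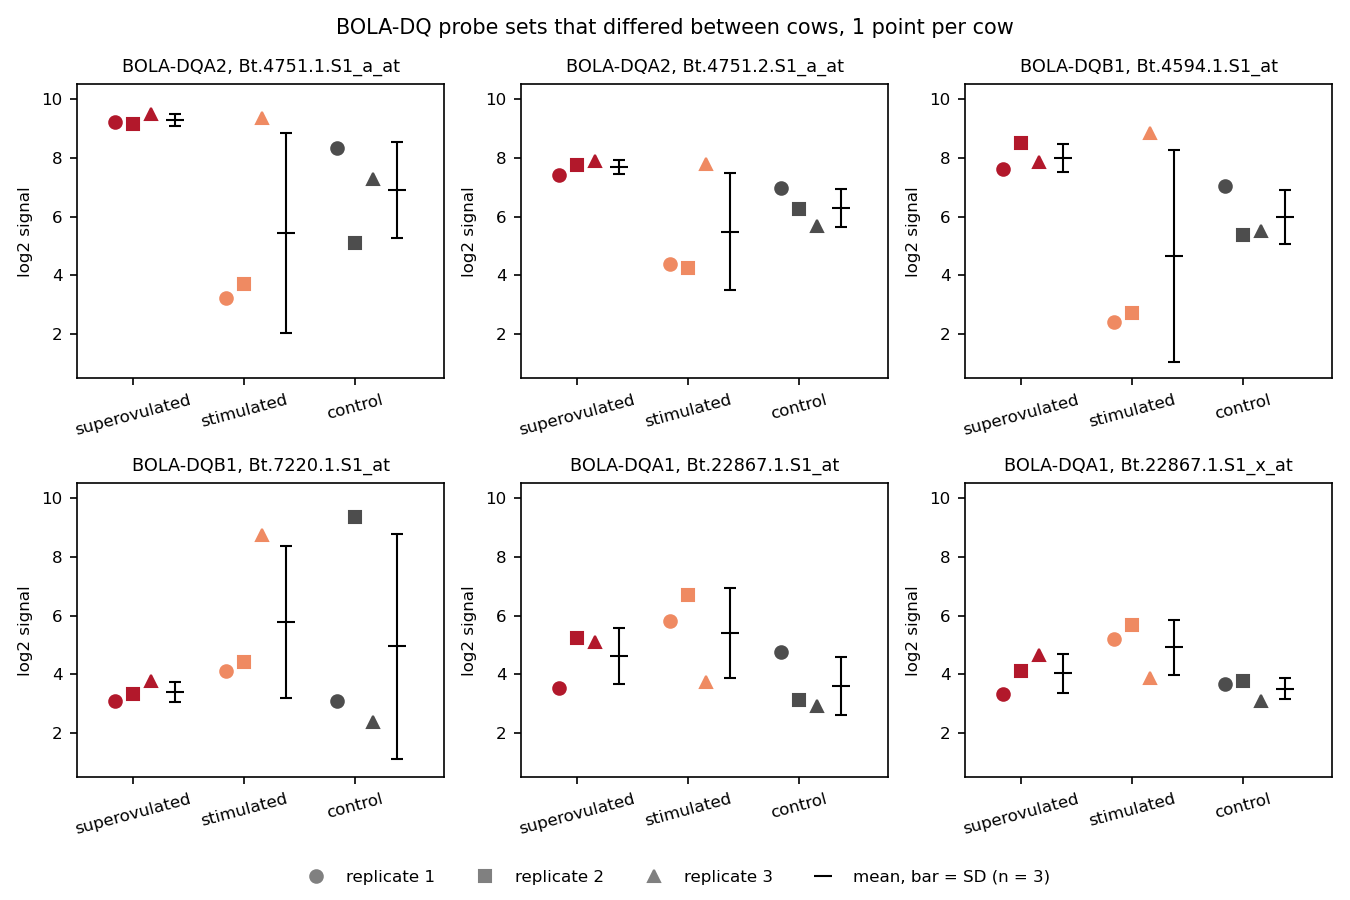
Log2 signal (vertical axis, the same range in each panel) of 6 probe sets of DQA2, DQB1 and DQA1 in each cow, by group; a point is 1 cow, its shape the replicate number, and the bar the mean and SD of 3 cows. Stimulated replicates 1 and 2 have 3.22 and 3.71 on DQA2 probe set Bt.4751.1.S1_a_at, while stimulated replicate 3 has 9.37.

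The group differences of these DQ probe sets changed in size with single cows. For superovulated minus stimulated, DQA2 had fold changes of 3.86 (SE 1.57, adjusted p = 0.504) and 2.21 (SE 0.87, adjusted p = 0.493) and DQB1 probe set Bt.4594.1.S1_at had 3.34 (SE 1.56, adjusted p = 0.548). Without stimulated replicate 3 these became 5.82 (adjusted p = 0.361), 3.36 (adjusted p = 0.164) and 5.44 (adjusted p = 0.164). Without stimulated replicate 1 the first was 2.75, and it stayed short of the threshold in each case. For superovulated minus control the same probe sets gave 2.39 (SE 1.57, adjusted p = 0.857), 1.38 (SE 0.87, adjusted p = 0.852) and 2.02 (SE 1.56, adjusted p = 0.871). For stimulated minus control they gave -1.47 (adjusted p = 0.908), -0.83 (adjusted p = 0.906) and -1.32 (adjusted p = 0.915), so that DQA2 and this DQB1 probe set had signs opposite to DRA, DMA, DMB and the bright DQB1 probe set. With single arrays left out these ran from -3.43 to -0.36, from -1.98 to -0.22 and from -3.41 to -0.20, each lowest without stimulated replicate 3.

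DQB1 probe set Bt.7220.1.S1_at had a fold change of -1.55 for superovulated minus control (SE 1.92, adjusted p = 0.923), 0.82 for stimulated minus control (SE 1.92, adjusted p = 0.961) and -2.37 for superovulated minus stimulated (SE 1.92, adjusted p = 0.73). The first turned to 0.66 without control replicate 2 and the stimulated one to -0.68 without stimulated replicate 3, the 2 cows with high signal.

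The SD within groups showed the same on the scale of the whole array. Its median over all tested probe sets was 0.15. DQB1 probe set Bt.7220.1.S1_at had 2.68 and ranked 5 of 23948 from the highest, DQA2 probe set Bt.4751.1.S1_a_at had 2.19 and ranked 9, and DQB1 probe set Bt.4594.1.S1_at had 2.18 and ranked 10. DQA2 probe set Bt.4751.2.S1_a_at ranked 168 with 1.22, and DQA1 probe set Bt.22867.1.S1_at ranked 180 with 1.19. The x probe set of DQA1 had 0.70, larger than that of 96.4% of probe sets. The DR, DM and bright DQB1 probe sets had within-group SDs from 0.40 to 0.62. These too were high on the array, larger than those of 87.1% (DMB) to 95.1% (DMA) of probe sets.

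**Figure D4:**
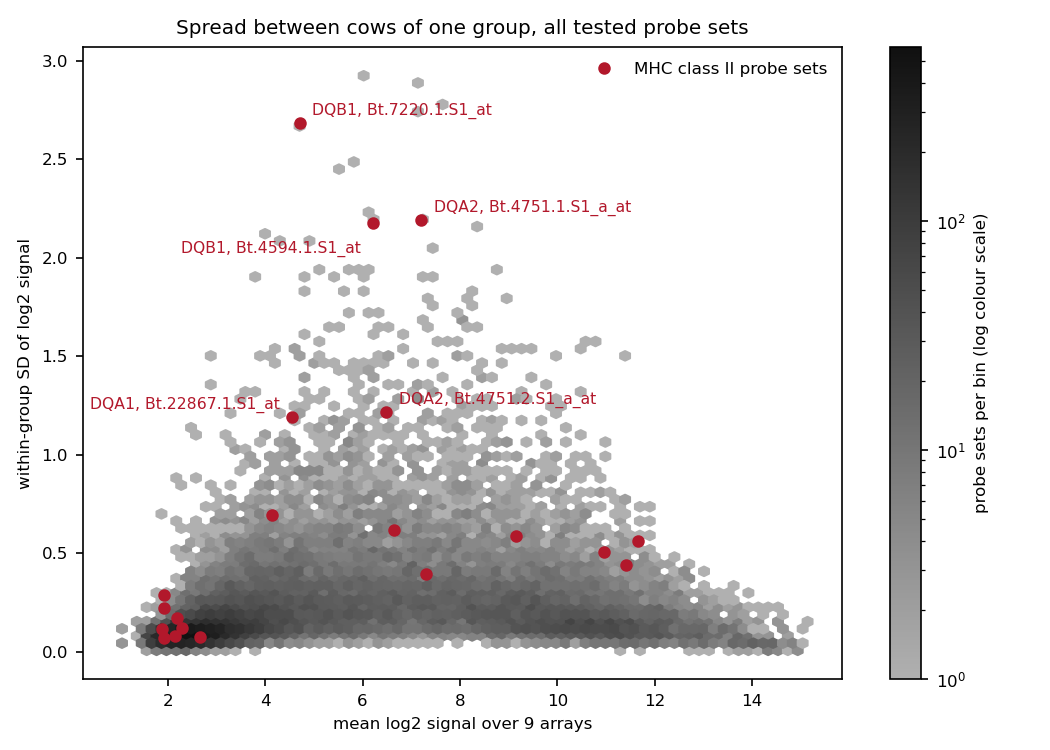
Within-group SD of log2 signal (vertical axis) against the mean log2 signal over 9 arrays (horizontal axis) for all 23948 tested probe sets, as shaded bins, with the 20 BOLA-D probe sets as red points. DQB1 (Bt.7220.1.S1_at), DQA2 (Bt.4751.1.S1_a_at) and DQB1 (Bt.4594.1.S1_at) lie at 2.68, 2.19 and 2.18, while the median of all is 0.15.

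The other members gave little signal. The 8 probe sets below the lower quartile had means from 1.88 to 2.66 and single values from 1.55 to 2.83 in the 9 cows. They were DOA (mean 2.66), DYB (2.30), DQA5 (2.19), DQB (2.14), DYA (1.91), a further probe set of DQA2 (1.88) and the last pair of DQB1 probe sets (1.92 each). Their log2 fold changes ran from -0.09 to 0.13 over the 3 comparisons, and the lowest adjusted p was 0.719. DOA, the alpha chain of DO, averaged 2.64 in superovulated, 2.73 in stimulated and 2.60 in control cows. At this brightness a change would have been hard to see, so these values do not show that the genes were silent or unaltered.

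Whether other genes of the pathway moved was read from lists of regulators, proteases and partners, each gene by its brightest probe set. No list had a member past the threshold by limma in any comparison (0 in all 6 lists), and the counts below at an unadjusted p under 0.05 stand beside array-wide shares of 2.6% higher and 3.6% lower for superovulated against control, 3.67% and 2.73% for stimulated against control, and 4.06% and 5.6% for superovulated against stimulated. Of 10 regulators of class II genes, 0 were past that line for superovulated against control, 1 was higher for stimulated against control and 1 was lower for superovulated against stimulated (HDAC2, a histone deacetylase, at -0.26, adjusted p = 0.504). The higher one was RFX5, a subunit of the factor that binds class II promoters, at 4.03 ± 0.10 in superovulated, 4.20 ± 0.23 in stimulated and 3.82 ± 0.25 in control cows (SD, n = 3 each). Its fold change was 0.38 for stimulated minus control (SE 0.15, adjusted p = 0.774). The list medians were 0.07 for superovulated minus control, 0.09 for stimulated minus control and -0.01 for superovulated minus stimulated.

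Endosomal processing, which cuts the proteins and the invariant chain, was measured by 15 genes with medians of 0.02, 0.05 and -0.07 in the same order of comparisons. For stimulated against control 2 of 15 were higher at an unadjusted p under 0.05, the protease CTSB by 0.51 (SE 0.12, adjusted p = 0.53) and CTSS, the cathepsin that trims the invariant chain, by 0.65 (SE 0.21, adjusted p = 0.697). CTSS averaged 12.13 ± 0.27 in superovulated, 12.40 ± 0.26 in stimulated and 11.75 ± 0.31 in control cows (SD, n = 3 each). LGMN, an asparaginyl protease, had 0.41 for superovulated minus control (adjusted p = 0.805), the only one of 15 past an unadjusted 0.05 there, and 0.34 for stimulated minus control (adjusted p = 0.819). IFI30, a reductase of the endosome, had -0.30 (adjusted p = 0.956) and -0.75 (adjusted p = 0.884) for those comparisons. For superovulated against stimulated 1 of 15 was lower, CTSB, at -0.32 (adjusted p = 0.481).

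The interferon gamma pathway was measured by 14 genes, with medians of 0.06 for superovulated minus control, 0.22 for stimulated minus control and -0.06 for superovulated minus stimulated. For stimulated against control 11 of 14 had a positive fold change and 3 an unadjusted p under 0.05. They were GBP5, an interferon-induced GTPase, at 3.05 (SE 0.73, adjusted p = 0.53), IRF9, a subunit of an interferon-activated factor, at 1.07 (SE 0.26, adjusted p = 0.541), and GBP4 at 1.0 (SE 0.39, adjusted p = 0.769). The same 3 genes were past the unadjusted line for superovulated against stimulated, at -1.97 (adjusted p = 0.474), -0.97 (adjusted p = 0.381) and -1.40 (adjusted p = 0.392); both comparisons use the same stimulated cows. For superovulated against control 0 of 14 were past it. IFNG itself was dim, at 2.19 in superovulated, 2.23 in stimulated and 2.11 in control cows. IRF1 and NLRC5 had no probe set with a single symbol here.

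Class I presentation, which shows peptides of the cell's own proteins, was measured by 15 genes, with medians of 0.02 for superovulated minus control, 0.27 for stimulated minus control and -0.17 for superovulated minus stimulated. At an unadjusted p under 0.05, 1 was higher, 2 were higher and 3 were lower in those comparisons. TAP1, PSMB8 and PSMB9 stand on this list and on that of the interferon gamma pathway, so the lists are not separate readings. TAPBP, a chaperone of class I molecules, had 0.21 (SE 0.08, adjusted p = 0.801) for superovulated minus control and 0.27 (SE 0.08, adjusted p = 0.644) for stimulated minus control. B2M, the light chain of class I molecules, averaged 14.54 in superovulated, 14.79 in stimulated and 14.46 in control cows, with 0.33 for stimulated minus control (SE 0.12, adjusted p = 0.716). For superovulated minus stimulated the 3 lower genes were TAPBPL, at -0.56 (adjusted p = 0.459), PSME2, at -0.33 (adjusted p = 0.469), and PSMB10, at -0.53 (adjusted p = 0.504).

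Costimulation was measured by 9 genes, of which 4 lay below the lower quartile, with medians of 0.05, -0.02 and 0.05 in the same order. CD86, the B7 molecule of antigen-presenting cells, was at 4.46 in superovulated, 4.67 in stimulated and 3.54 in control cows. It was the only one of 9 past an unadjusted 0.05, at 0.91 for superovulated minus control (SE 0.38, adjusted p = 0.801) and 1.13 for stimulated minus control (SE 0.38, adjusted p = 0.705). The T cell genes that meet class II molecules were measured by 11 genes, 3 of them below the lower quartile, with medians of 0.07, 0.17 and -0.12. Of these, CD5 was past the unadjusted line at 0.22 for superovulated minus control (SE 0.05, adjusted p = 0.719) and at 0.16 for superovulated minus stimulated (SE 0.05, adjusted p = 0.458), and FOXP3, the factor of regulatory T cells, at 0.17 for stimulated minus control (SE 0.07, adjusted p = 0.757). Both were dim: CD5 averaged 2.47 in superovulated, 2.31 in stimulated and 2.25 in control cows, and FOXP3 2.24 in superovulated, 2.34 in stimulated and 2.16 in control cows. Several of these 11 genes are also T cell markers below, and CD4, the coreceptor that binds class II, was dim at 2.35 in superovulated, 2.26 in stimulated and 2.39 in control cows.

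In whole tissue, fewer cells of a type and less RNA per cell cannot be told apart, so markers of the cells that carry class II molecules are given beside the members. The macrophage list was measured by 15 genes. Its mean log2 signal per cow was 5.73, 6.84 and 5.70 in superovulated cows, 5.97, 7.23 and 6.53 in stimulated cows, and 5.36, 5.79 and 4.53 in control cows. Every stimulated cow lay above every control cow. Of the 15, 14 had a positive fold change for superovulated minus control (median 0.56), 15 for stimulated minus control (median 1.49) and 2 for superovulated minus stimulated (median -0.50). None passed the threshold by limma (0 of 15), while 3 were higher, 9 were higher and 3 were lower at an unadjusted p under 0.05.

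AIF1, a cytoplasmic protein of macrophages, averaged 8.65 ± 0.39 in superovulated, 8.76 ± 0.40 in stimulated and 7.02 ± 0.65 in control cows (SD, n = 3 each). Its fold change was 1.63 (SE 0.36, adjusted p = 0.639) for superovulated minus control and 1.73 (SE 0.36, adjusted p = 0.461) for stimulated minus control. CD68, a lysosomal protein of macrophages, averaged 6.48 in superovulated, 7.14 in stimulated and 5.09 in control cows, and CSF1R, the receptor for macrophage colony-stimulating factor, 4.35, 4.85 and 3.89. FCGR3A, an antibody receptor, had 1.08 for stimulated minus control (SE 0.14, adjusted p = 0.201) and -0.90 for superovulated minus stimulated (SE 0.14, adjusted p = 0.215). FCGR3A averaged 3.57 in superovulated, 4.47 in stimulated and 3.39 in control cows. The markers C1QC, C1QB and C1QA had 1.79, 2.11 and 1.49 for stimulated minus control by limma (adjusted p = 0.53, 0.644 and 0.726). For superovulated minus stimulated they had -1.38, -1.76 and -0.94 (adjusted p = 0.43, 0.46 and 0.62). For superovulated minus control they had 0.41, 0.35 and 0.56. CD14, a receptor for bacterial lipopolysaccharide, had 2.70 (adjusted p = 0.803) for superovulated minus control and 1.66 (adjusted p = 0.875) for stimulated minus control. For superovulated minus stimulated CD14 was among the few positive markers, at 1.04 (adjusted p = 0.806 by limma). The part of these markers in the class II values was not tested.

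The markers of the other presenting cells were few and dim. B cells were measured by 6 genes, 2 of them below the lower quartile, with list means of 2.68 to 2.86 in superovulated, 2.84 to 2.94 in stimulated and 2.67 to 2.83 in control cows. Their medians were 0.09 for superovulated minus control, 0.14 for stimulated minus control and -0.06 for superovulated minus stimulated. For stimulated against control 1 of 6 was higher at an unadjusted p under 0.05 by limma, BLNK, at 0.36 (SE 0.15, adjusted p = 0.778). The B cell antigens MS4A1 and CD79A averaged 2.58 and 2.43 in superovulated, 2.89 and 2.48 in stimulated, and 2.69 and 2.38 in control cows. Dendritic cells were measured by 4 genes, 2 of them below the lower quartile, with list means of 3.13 to 3.55 in superovulated, 3.05 to 3.43 in stimulated and 2.92 to 3.20 in control cows and medians of 0.39, 0.16 and 0.05. Of the 4, 1 was higher for stimulated against control at an unadjusted p under 0.05 by limma, LAMP3, at 0.31 (SE 0.13, adjusted p = 0.778). IRF8, at 5.05 in superovulated, 4.93 in stimulated and 4.43 in control cows, stands on this list and on that of the regulators, and CD163 and FLT3 had no probe set with a single symbol here.

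T cells were measured by 11 genes, 4 of them below the lower quartile, with list means of 3.03 to 3.19 in superovulated, 3.03 to 3.64 in stimulated and 2.97 to 3.15 in control cows and medians of -0.03, 0.06 and -0.06. CD3E averaged 3.31 in superovulated, 3.42 in stimulated and 3.19 in control cows. Neutrophil markers (6 genes) had list means of 6.12 to 6.75 in superovulated, 4.68 to 5.23 in stimulated and 5.89 to 6.82 in control cows, with medians of 0.06, -1.36 and 1.13. Their stimulated values were thus the lowest, opposite in sign to the macrophage list.

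Endothelial cells, which line the dense vessels of this gland, were measured by 9 genes, 2 of them below the lower quartile. Median fold changes were 0.19 for superovulated minus control, 0.16 for stimulated minus control and -0.12 for superovulated minus stimulated. List means were 7.97, 7.96 and 7.48 in superovulated cows, 7.85, 8.18 and 7.72 in stimulated cows, and 7.32, 8.22 and 7.24 in control cows. Control replicate 2 was the highest of the 9 cows and the other 2 controls the lowest, as for DRA and DRB3 probe set Bt.5356.1.S1_s_at. PECAM1 averaged 10.67 in superovulated, 10.63 in stimulated and 10.47 in control cows. The part of endothelial RNA in the DR values was not tested.

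Steroidogenic markers of the labelled tissue averaged well above the lower quartile in each group, apart from CYP17A1. That gene was dim, at 2.69 in superovulated, 2.92 in stimulated and 2.79 in control cows. The list of steroidogenic luteal cells (8 genes) had means of 10.99 to 11.08 in superovulated, 11.06 to 11.23 in stimulated and 10.89 to 11.24 in control cows, with medians of -0.07, 0.03 and -0.10. STAR, which brings cholesterol into the mitochondrion for progesterone synthesis, averaged 14.67 in superovulated, 14.79 in stimulated and 14.76 in control cows. Fibroblast and pericyte markers (8 genes) had means of 12.07 to 12.56 in superovulated, 11.73 to 12.35 in stimulated and 11.98 to 12.17 in control cows, with medians of 0.13, -0.04 and 0.19.

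**Figure D5:**
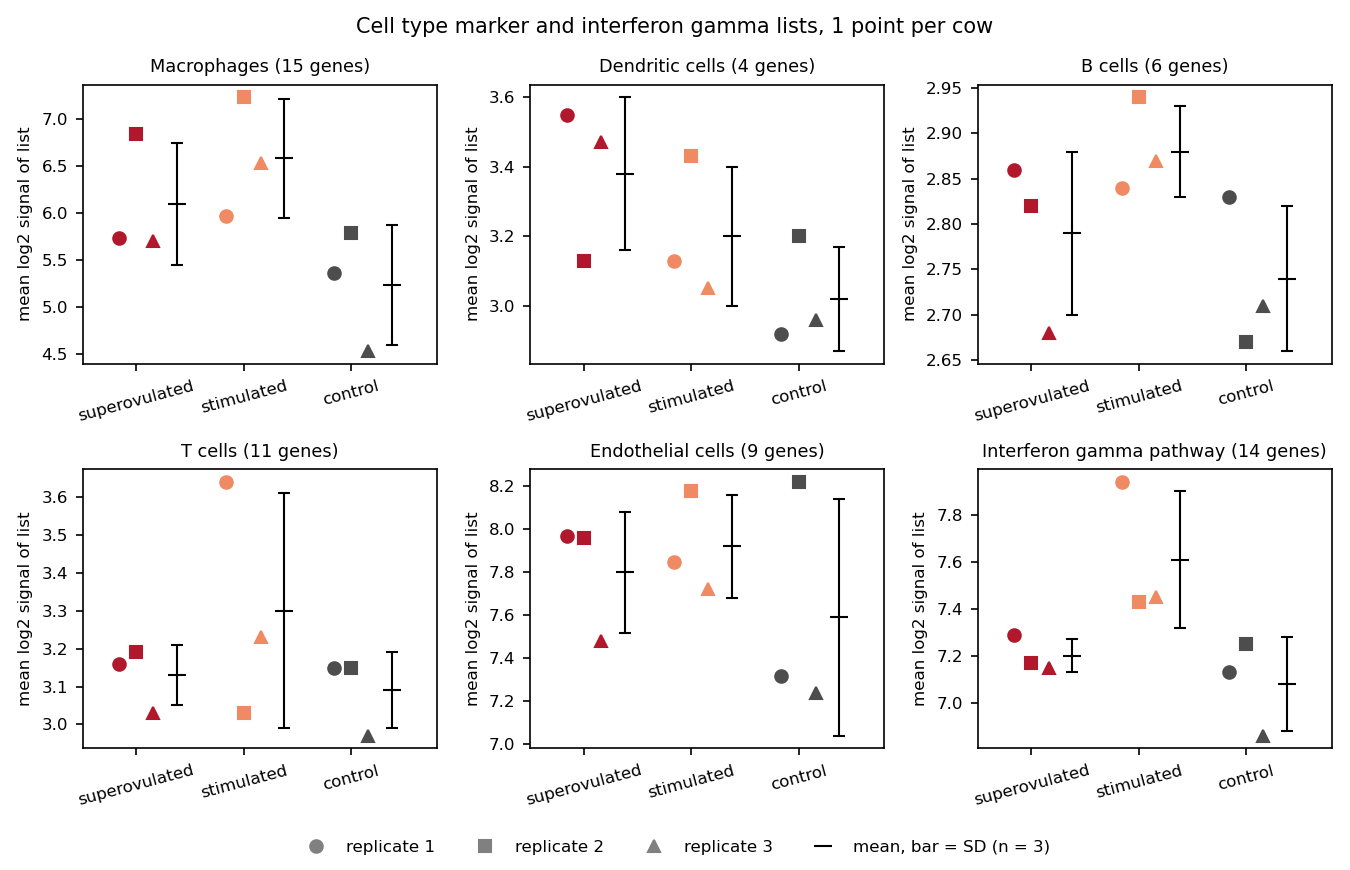
Mean log2 signal of 5 cell type marker lists and of the interferon gamma pathway list (vertical axis, its own range in each panel) in each cow, by group; a point is 1 cow, its shape the replicate number, and the bar the mean and SD of 3 cows. The macrophage list is at 5.97 to 7.23 in stimulated cows and 4.53 to 5.79 in control cows, and the B cell list stays between 2.67 and 2.94.

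Some signs of RNA quality differed between the groups as well, and others overlapped. The 3' minus 5' difference of the actin control overlapped in all 3 groups, with means of -0.40 in superovulated, -0.36 in stimulated and -0.33 in control cows. The 3' minus 5' difference of the cyclophilin control on the log2 scale was 0.23 to 0.31 in superovulated, 0.24 to 0.32 in stimulated and 0.14 to 0.18 in control cows. That of the GST control was -0.20 to -0.10 in superovulated, -0.78 to -0.30 in stimulated and -0.73 to -0.37 in control cows. Only the GST control separated superovulated from stimulated cows. Among 6 such controls, 3 were higher without overlap for superovulated against control, 2 for stimulated against control and 1 for superovulated against stimulated, and none was lower without overlap (0 of 6 in each). Their part in the class II values was not tested. Array medians lay between 4.19 and 4.25, and correlations between arrays were 0.987 to 0.994 within groups and 0.986 to 0.994 between groups.

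The genes whose pattern over the 9 cows was most like each member were read from 7907 genes above the lower quartile of signal, by Pearson's r, as a description without a test. DMB ran most like B2M (r = 0.965) and ZNFX1 (0.957), and DMA like FAM50A (0.958) and PABIR1 (0.953). DRA was closest to EGFL7 (0.95), a gene of endothelial cells, and OAZ2 (0.943). DRB3 was closest to RAMP2 (0.974), a receptor partner for adrenomedullin, and EGFL7 (0.964). DQB1, by its bright probe set, was closest to TMEM140 (0.932) and DTX3L (0.918), DQA2 to CPPED1 (0.929) and MTMR14 (0.928), and DQA1 to PTPN6 (0.872), a phosphatase of blood cells, and F13A1 (0.87), a coagulation factor chain found in macrophages. For the mean of the 12 genes the closest were STK38L (0.956), ATG12 (0.932), IFIT5 (0.929), PPP1R10 (0.929) and FGD5 (0.914). That mean centred each gene without scaling, so members that varied widely, such as DQA2, weighed most in it. The dim members also had partners with r of 0.88 to 0.956 (for DOA, N4BP2L1 and PDE4DIP), on values that hardly moved, so r of this size was reached by picking the closest of many genes over 9 cows.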

How the data were processed

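Arrays were labelled from total RNA as biotinylated cRNA, 1 cow each, per the labels' protocols. The deposited values are in another, nonstandard form: each number has lost its decimal mark. How probes were summarised, the normalisation and the log base: not given in the sources used here. The mark was put back as follows, and the recovered values, 0.85 to 15.36, were read as log2 signal; this reading of the deposited numbers as log2 rests on their range. A run that could be read as 1.x or 1x.x (15.5% of values) was settled by a scanner limit of 16, by the probe set's other arrays, or, where all 9 were open, by the spread between arrays at a posterior of 0.99. Of 24128 probe sets 112 were controls and 68 others stayed undecided, leaving 23948. Among the members, DRA, DRB3 probe set Bt.5356.1.S1_s_at and DQB1 probe set Bt.350.1.S1_s_at were open on all 9 arrays and read as bright. No depth exists for arrays, and their number limits the precision.

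Gene symbols are those of the platform's annotation: 13292 probe sets have 1 symbol, 86 several and 10638 none. The brightest probe set stands for a gene with several. limma 3.58.1 (R 4.3.3; lmFit, eBayes, 6 residual degrees of freedom, 2-sided, Benjamini-Hochberg) was fitted to all 9 arrays, and both steps were tested on simulated data. SDs are over 3 cows and SEs from the moderated fit.

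The members, 6 gene lists, 8 marker lists and the naming rule were chosen with earlier results of these data known. The rule names every member, up to 3 genes of smallest p per list and comparison, the 2 genes most like each member and the 5 most like their mean, and a fixed set of regulators and markers; the text gives these for the member results they stand beside. Alternatives were quantile or 75th percentile scaling, a filter on dim probe sets, only runs with 1 reading, a variance trend, the replicate number as a block, only the groups compared, the mean of a gene's probe sets, and leaving out each array. The titles number the cows 1 to 3 in each group with no stated pairing. Same-numbered deviations correlated by 0.20, 0.38 and 0.15 between superovulated and stimulated cows, all over 0.1, by 0.08, 0.35 and 0.15 between superovulated and control, and by 0.15, 0.28 and -0.03 between stimulated and control.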

Additional observations from a re-analysis of the deposited data

How the results depend on the processing

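Over 36 fold changes (the 12 member probe sets above the lower quartile of signal, in 3 comparisons), 567 values were computed under the alternatives that refit single probe sets; the mean of a gene's probe sets is given apart below. None passed the threshold (0, lowest adjusted p 0.164 in limma), 555 kept the sign and 12 turned it, in 6 fold changes, while 30 never did. For superovulated minus control, DMB became -0.04 and DRB3 probe set Bt.28011.1.S1_at -0.24 without control replicate 3. DMA, at -0.00, became 0.01 under quantile scaling, 0.14 without control replicate 1, 0.36 without control replicate 2 and 0.21 without superovulated replicate 2. The bright DQB1 probe set became -0.34 without control replicate 1 and -0.03 without superovulated replicate 1. DQB1 probe set Bt.7220.1.S1_at became 0.66 for superovulated minus control without control replicate 2. For stimulated minus control it became -0.11 and -0.46 without control replicates 1 and 3 and -0.68 without stimulated replicate 3. Over the left-out arrays, superovulated minus control ran from -0.04 to 0.64 for DMB, -0.24 to 0.53 for that DRB3 probe set, -0.50 to 0.36 for DMA, -0.34 to 0.54 for the bright DQB1 probe set and -2.83 to 0.66 for Bt.7220.1.S1_at, whose stimulated minus control ran from -0.68 to 3.03. Leaving out an array leaves fewer samples; the cause was otherwise not tested. As the mean of its 5 probe sets, which do not move together, DQB1 had 0.12 for stimulated minus control, against 1.09 for the bright probe set, and 0.01 for superovulated minus stimulated, a turn of sign against its -1.01.

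Leaving out single arrays moved the median of the 12 genes between 0.039 and 0.451 for superovulated minus control (0.451 without control replicate 2) and between 0.241 and 0.634 for stimulated minus control (without control replicates 3 and 2). Counts of probe sets passing over the whole array stayed small. For stimulated minus control the count was 1, 3 with the replicate block and 0 to 4 with single arrays left out (0 without stimulated replicate 3, 2 without control replicate 2, 4 without superovulated replicate 3). For superovulated minus control it was 0, 1 with only the groups compared and 0 to 1 with arrays left out. For superovulated minus stimulated it was 1, then 2 under quantile scaling, under 75th percentile scaling and with only 1 reading allowed, and 1 to 3 with arrays left out. The F test gave 1, and 1 to 2 with arrays left out. The replicate block brought no member past the threshold. Probe sets below the lower quartile limit what could be seen of DOA, DYA, DYB, DQA5 and DQB.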
